A study of Mus musculus with 2 samples.

Results

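The nuclear genes of oxidative phosphorylation were described by respiratory complex and by cell class in single cells of the mouse spinal cord. Members were all gene symbols that start with Nduf, Uqcr, Cox4, Cox5, Cox6, Cox7, Cox8 or Atp5, together with Sdha, Sdhb, Sdhc and Sdhd, which gave 94 of the 32285 genes measured. Of these, 45 belonged to complex I, 4 to complex II, 8 to complex III, 20 to complex IV and 17 to complex V, the ATP synthase. Ndufa4 and its relative Ndufa4l2 were counted with complex IV, where the Ndufa4 protein sits. The symbols also bring in 9 assembly factors (Ndufaf1 to Ndufaf8 and Cox7a2l), which help to build a complex or supercomplex without carrying electrons.

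Complexes I to IV pass electrons from NADH and succinate to oxygen and pump protons across the inner mitochondrial membrane, and complex V uses the returning protons to make ATP. Most subunits are made from nuclear genes and imported, while a small set, including the catalytic cores of complexes I and IV, is made from the mitochondrial genome inside the organelle. Complex II, which is also an enzyme of the TCA cycle, is made from nuclear genes alone and pumps no protons. Spinal muscular atrophy is a motor neuron disease in which the SMN protein is too low.

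The 2 libraries came from whole spinal cord of FVB mice at postnatal day 4. The library labelled SMA held mSmn-/-, hSMN22tg/0 pups, which have no intact mouse Smn gene and carry the human SMN2 transgene in the hemizygous state. The library labelled Con held mSmn+/-, hSMN22tg/0 littermates, which carry the same transgene and keep 1 mouse allele. Per the study's methods, the cords of several littermates were pooled for SMA and for Con, and dissociated with trypsin and collagenase. Each group is thus 1 library, no difference between the groups has a replicate check, and no test was made. Intervals below are 95% intervals for counting error only.

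Several facts of the whole series bear on these values. The libraries listed 8163 cell barcodes in common, and 6509 SMA barcodes that passed the limits on cells were left out because Con lists them too, which left 6787 SMA cells with a median of 6109 UMIs (counted molecules) and 8919 Con cells with a median of 6229 UMIs. Smn1 was at 52.2 CPM (the UMIs of a gene scaled to a fixed total per library) in the pooled SMA cells and 51.1 in Con, a log2 ratio of 0.03 (-0.05 to 0.11), so a lower Smn1 level was not detectable in the library labelled SMA. The sources used here do not say whether the 3′ tag lies outside the altered part of the gene or what transgene reads add, and all directions below follow the labels. Xist was at 1.66 CPM in SMA and 619 CPM in Con, and 4 Y-linked genes together at 167 and 74.4 CPM, so the sexes in the pools differed and sex and genotype cannot be told apart. Cells were clustered without the members and named by markers. The comparison covers the 11 classes for which SMA and Con each held 50 cells or more. In each of them all 10 markers of its own class were detected in both libraries. Markers of other classes were detected too, as all 10 microglia markers in astrocytes, so detection alone does not set a name apart. Names stand for marker-like cells. OPC and COP are oligodendrocyte precursors and committed oligodendrocyte precursors. Macrophages, monocytes and neurons (41 SMA and 26 Con cells) were too few in SMA, Con or both for a comparison.

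Promoters of 77 of the 94 members were found in RefSeq (GRCm38.p6), each as 250 bases before to 50 bases after a start site. Factors that are known to act on many respiratory genes are NRF-1, NRF-2, which binds an ETS core, and YY1. On either strand, the NRF-1 word GCGCATGCG was present for 10 of 77 members, against 1.95% of the 27025 genes with a window. YY1's word AAGATGGCG was present for 8 members, 10.4%, against 1.64% of all genes, and the ETS core CCGGAAG for 19, 24.7%, against 9.93%. ACGTG, the core of the hypoxia response element, was present for 19 members, 24.7%, against 21.8% of all genes. A match is a description of the letters in the window and not a binding site.

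The 4 promoters below belong to members with pooled ratios near the top or bottom of the order and past the threshold in 7 or more classes. Atp5md, Atp5k and Cox7c were higher in SMA and Atp5b was lower. Capitals mark the NRF-1 and ETS letters (overlapping NRF-1 matches on both strands are joined). Atp5k holds both, the NRF-1 word before the start site and the ETS core just after it, and Atp5md holds the ETS core just after its start. None of the words of NRF-1, NRF-2 and YY1 was found in the windows of Cox7c and Atp5b, which says only that these letters are not there.
Atp5md, chr19:47090598-47090897, minus strand: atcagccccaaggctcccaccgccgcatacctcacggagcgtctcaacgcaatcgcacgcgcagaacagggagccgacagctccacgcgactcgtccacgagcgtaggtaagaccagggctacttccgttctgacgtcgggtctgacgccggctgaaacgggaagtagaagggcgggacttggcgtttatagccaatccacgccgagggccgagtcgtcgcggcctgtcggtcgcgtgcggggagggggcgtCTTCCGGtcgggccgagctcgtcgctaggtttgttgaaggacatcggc
Atp5k, chr5:108434350-108434649, minus strand: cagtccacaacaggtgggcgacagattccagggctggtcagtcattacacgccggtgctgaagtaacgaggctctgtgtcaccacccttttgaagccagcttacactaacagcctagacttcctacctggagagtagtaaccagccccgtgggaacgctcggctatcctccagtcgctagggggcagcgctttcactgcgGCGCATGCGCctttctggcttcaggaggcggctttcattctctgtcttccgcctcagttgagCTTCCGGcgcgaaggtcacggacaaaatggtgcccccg
Cox7c, chr13:86046746-86047045, minus strand: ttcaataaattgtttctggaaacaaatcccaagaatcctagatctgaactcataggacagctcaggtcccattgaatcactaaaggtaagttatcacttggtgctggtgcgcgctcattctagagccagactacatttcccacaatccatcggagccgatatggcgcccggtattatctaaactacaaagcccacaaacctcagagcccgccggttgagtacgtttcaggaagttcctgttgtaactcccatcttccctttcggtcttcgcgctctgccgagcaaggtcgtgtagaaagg
Atp5b, chr10:128083057-128083356, plus strand: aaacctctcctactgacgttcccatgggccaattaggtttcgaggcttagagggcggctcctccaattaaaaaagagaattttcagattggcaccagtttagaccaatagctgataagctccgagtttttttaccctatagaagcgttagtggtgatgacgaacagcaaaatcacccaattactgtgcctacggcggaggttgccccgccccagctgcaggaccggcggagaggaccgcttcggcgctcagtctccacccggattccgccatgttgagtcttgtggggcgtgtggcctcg

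Across classes, the nuclear genes took the largest share of UMIs in mural cells, the contractile cells of vessel walls. Their summed share was 4.33% (4.28 to 4.38) of all UMIs in SMA mural cells and 4.16% (4.13 to 4.18) in Con. Among the classes of 50 cells or more, astrocytes came next in both libraries, at 3.87% and 3.39%. Microglia were at 2.17% and 1.91%, and erythroid cells, whose UMIs are 74.6% and 77.9% haemoglobin, were lowest at 1.09% and 0.85%. Of the 91 members with at least 200 UMIs, 35 had their highest level in mural cells, 13 in astrocytes, 11 in ependymal cells and 1, Cox6b2, in erythroid cells. The lowest class was erythroid for 86. The order of the classes between these ends was not the same in the libraries: fibroblasts ranked 3 of 11 in SMA and 9 of 13 in Con. Macrophages and monocytes, ranked in Con only, were at 2.04% and 2.20%, next to microglia. The 41 SMA neurons were at 4.01% (3.95 to 4.08) and the 26 Con neurons at 3.53% (3.46 to 3.60).

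Complex I supplied from 30.2% of the member UMIs, in SMA macrophages, to 38.9%, in Con ependymal cells. It supplied 33.2% in SMA astrocytes and 34.2% in Con astrocytes, complex II 1.51% and 1.88%, complex III 10.4% and 10.2%, complex IV 29.3% and 27.4%, and complex V 25.5% and 26.3%. Ependymal cells had the largest complex I part in both libraries, 38.3% in SMA and 38.9% in Con, followed by neurons at 35.0% and 36.3%, while microglia were at 30.5% and 31.3%. These are numbers of molecules tagged near the 3′ end, not divided by transcript length. The most abundant member in Con was Cox4i1 (chromosome 8, 120668222 to 120674207, plus strand, GRCm38, protein-coding), a subunit of the oxidase core's regulatory shell, at 1345 CPM over the pooled cells other than erythroid ones and 1390 in SMA. Within complex IV, Cox8a was at 1163 CPM in Con and 1415 in SMA, where it was above Cox4i1, and Ndufa4 at 880 and 1127 CPM. In complex V, Atp5g2, a source of the rotating c ring, stood at 994 and 1067 CPM, Atp5j of the stalk at 605 and 693, and Atp5e of the F1 head at 569 and 722. Complex III was led by Uqcrh, Uqcrq and Uqcrb, at 584, 446 and 422 CPM in Con and 630, 534 and 506 in SMA, and complex I, over both libraries, by Ndufb9, Ndufb8 and Ndufc2, at 553, 541 and 468 CPM in Con and 584, 584 and 579 in SMA. In complex II, Sdhb, the iron-sulphur subunit, was at 281 CPM in Con and 283 in SMA, and Sdhc and Sdhd, its membrane anchors, at 102 and 100 CPM in Con and 91.3 and 90.2 in SMA.

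**Figure D1:**
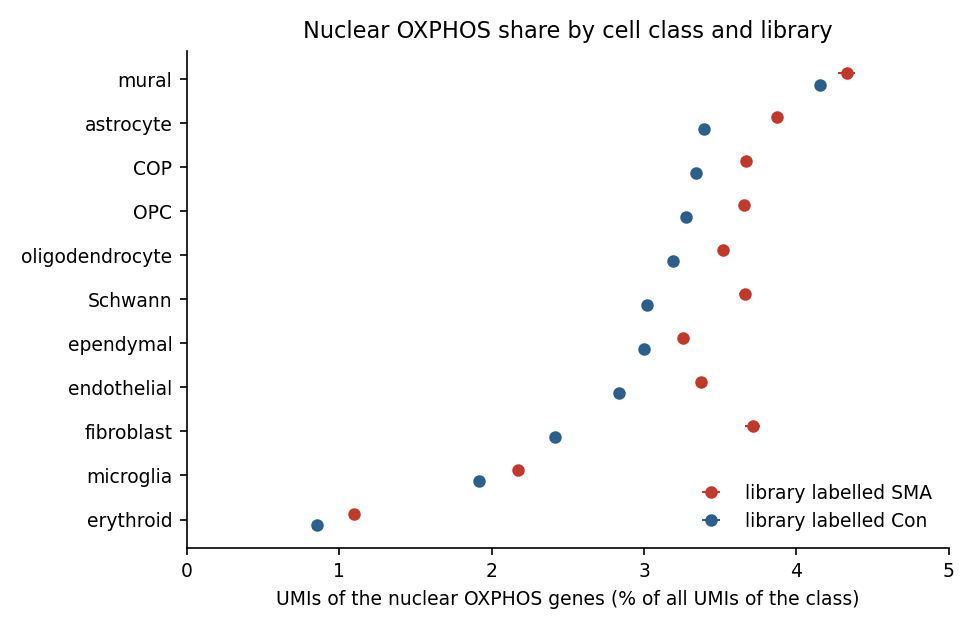
Each point is the share of a class's UMIs (%, from 0) that came from the 94 nuclear OXPHOS genes, in red for the library labelled SMA and in blue for Con, with exact 95% counting intervals mostly narrower than the point. Mural cells sit highest at 4.33% and 4.16%, microglia and erythroid cells lowest, and the red point lies to the right of the blue one in each of the 11 classes.

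The nuclear share was higher in the SMA library in 11 of 11 classes. The log2 ratio of SMA over Con had a median of 0.18 over the classes and ran from 0.06 (0.04 to 0.08) in mural cells to 0.62 (0.60 to 0.64) in fibroblasts. Astrocytes were at 0.19, microglia at 0.18, OPCs at 0.16, COPs at 0.13 and oligodendrocytes at 0.14. The makeup of the COPs differed, with 84 of 332 SMA and 324 of 757 Con cells in a cluster led by Enpp6. Oligodendrocyte markers were at 9252 CPM in SMA COPs and 14677 in Con ones, and the part of this in the ratio was not tested. With the shared SMA barcodes kept, the oligodendrocyte value turned to -0.09, over a class of 414 SMA and 374 Con cells with a median of 2025 UMIs. Those of the other compared classes stayed above 0. Endothelial cells were at 0.25, Schwann cells at 0.28, erythroid cells at 0.36 and ependymal cells at 0.12. Some class values moved by more than 1.5 times with the processing, in either direction. Erythroid cells were at 0.19 when scaled without haemoglobin, ribosomal-protein and mitochondrially encoded genes, at 0.16 when centred on the median of all genes, at 0.23 over cells with at least 5000 UMIs and 0.16 with a mitochondrial share under 5%. Microglia were at 0.12 when centred and at 0.09 with equal weight per cell, and mural cells at 0.11 with equal weight and 0.015 over cells with at least 5000 UMIs. Keeping the shared SMA barcodes gave 0.07 in COPs, 0.15 in endothelial cells, 0.18 in Schwann cells, 0.21 in erythroid cells and 0.013 in mural cells. Values rose with a mitochondrial share under 5%, to 0.35 in astrocytes, 0.37 in microglia, 0.30 in OPCs, 0.20 in COPs and 0.38 in endothelial cells. At Louvain resolution 2 oligodendrocytes were at 0.24, over a class of other makeup. It held 142 SMA and 407 Con cells with a median of 1805 UMIs, against 122 and 202 cells and 10585 UMIs in the main clustering. A cluster of 57 SMA and 88 Con cells with a median of 13055 UMIs, with Cldn11 and Mag among its leading genes, was left unnamed there. With 1 library per group, these intervals do not cover the spread between animals.

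Fibroblasts stood apart, and their makeup differed between the libraries. Of the 601 Con fibroblasts, 433 fell in a cluster with 2 SMA cells, where the members took 2.14% of the UMIs. In the other fibroblast cluster the share was 3.72% over 61 SMA cells and 2.67% over 168 Con cells, and without the cluster of mostly Con cells the class ratio was 0.48. The median mitochondrial share was 6.69% of UMIs in SMA fibroblasts and 2.59% in Con, and the median depth 8890 and 3469 UMIs. Haemoglobin RNA was at 0.04% of the UMIs of SMA fibroblasts and 1.97% of Con, and its share was lower in SMA in 10 of 11 classes, erythroid cells included and ependymal cells excepted. In fibroblasts the 10 fibroblast markers together were at 11999 CPM in SMA and 28897 in Con, the 10 astrocyte markers at 1702 and 691 CPM, and none of either list was at 0. The 10 oligodendrocyte markers together were lower in SMA in most classes, as in astrocytes (944 and 1349 CPM) and OPCs (1046 and 1665). They were higher in SMA in fibroblasts (886 and 659) and in oligodendrocytes themselves (73373 and 67260). The part of these differences in the ratios was not tested. Scaling without haemoglobin, ribosomal-protein and mitochondrially encoded UMIs kept 11 of 11 classes higher, with a median of 0.16.

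By complex, the median difference was largest in complex IV and slightly negative in complex II. Complex IV, the oxidase that hands electrons to oxygen, had a median log2 ratio of 0.26 and was higher in 11 of 11 classes. Complex III, which passes electrons from ubiquinol to cytochrome c, was at 0.22, also in 11 of 11, and complex I, the NADH dehydrogenase, at 0.15 in 11 of 11. Complex V was at 0.14 and higher in 10 of 11, the exception being mural cells at -0.03. Complex II, the succinate dehydrogenase, had a median of -0.05 and was higher in 4 classes and lower in 7. In pooled cells without erythroid ones its share was 0.0545% of UMIs in SMA and 0.0574% in Con, a log2 ratio of -0.07 (-0.10 to -0.05).

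**Figure D2:**
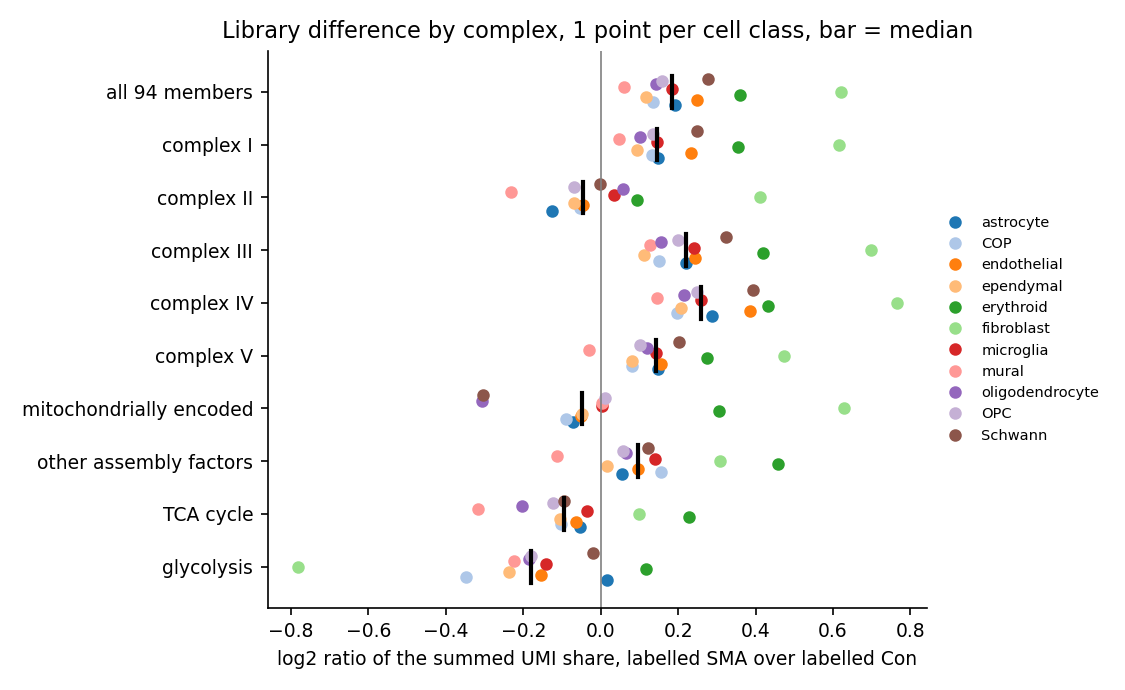
Each point is 1 cell class, placed on the x axis by the log2 ratio of the summed UMI share (labelled SMA over labelled Con), with gene sets in rows and a black bar at the median over 11 classes. Complexes I, III, IV and V lie to the right of 0, except complex V in mural cells at -0.03, with medians from 0.14 to 0.26, complex II straddles 0 at -0.05, and the TCA cycle and glycolysis sets lie mostly to the left.

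Gene by gene, a pair of a member and a class was counted when it had at least 200 UMIs over both libraries, and as past the threshold when its log2 ratio was 0.32 or more in size. Of 898 such pairs, 267 were higher in SMA, 29.7%, where 12.2% of the 48753 pairs of all genes were. With the shared SMA barcodes kept, the count was 152 of 935. Only 20 were lower, 2.23%, against 11.2% of all pairs. Complex IV had 63 of 141 pairs higher and 5 lower, complex V 59 of 187 and 9, complex III 27 of 88 and 0, complex I 116 of 441 and 3, and complex II 2 of 41 and 3. Over the pooled cells other than erythroid ones, 18 of 91 members were higher and 3 lower, with 13.7% and 11.2% of all genes, and the median member was at 0.11 where the median gene was at 0.02.

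The counts depended on the class. In astrocytes 23 of 87 members were higher past the threshold and 3 lower, where 5.31% and 12.9% of all genes were. In fibroblasts 58 of 77 were higher and 1 lower, with 25.3% and 32.1% of all genes, and in endothelial cells 32 of 81 and 2, with 13.3% and 12.2%. Erythroid cells had 45 of 80 higher and 1 lower (33% and 5.23%) and Schwann cells 29 of 77 and 0 (21% and 10.8%). In these 5 classes the share of members that were higher exceeded the share of all genes by the most percentage points. The glial precursors had smaller excesses, with 13 of 87 higher and 1 lower in OPCs (7.28% and 8.27%) and 14 of 84 and 1 in COPs (12.5% and 9.84%). Microglia had 20 of 83 and 1 (14.2% and 5.54%) and ependymal cells 12 of 84 and 2 (6.54% and 11.3%). In mural cells, with 10 of 79 higher and 6 lower (14.7% and 17.1%), and in oligodendrocytes, with 11 of 79 and 2 (13.6% and 13.8%), the share of members higher was near that of all genes.

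Several short subunits were near the top of the order of pooled ratios, which the isoform Cox6b2 headed. Atp5md (chromosome 19, 47083464 to 47090647, minus strand), a short membrane subunit of ATP synthase, was at 328 CPM in the pooled SMA cells and 225 in Con, a log2 ratio of 0.54 (0.51 to 0.58). It was past the threshold in 11 of 11 classes, from 0.55 in OPCs and COPs to 0.86 in erythroid cells, and it was the member with the highest ratio in Schwann cells (0.73), endothelial cells (0.83), ependymal cells (0.64), microglia (0.56) and oligodendrocytes (0.56). Its level was 354 CPM in SMA astrocytes and 235 in Con, 359 and 245 in OPCs, 195 and 133 in microglia, and 422 and 281 in mural cells. Of these 4 classes microglia were lowest in both libraries, while the highest of the 11 classes was oligodendrocytes in SMA and COPs in Con.

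Cox7c (chromosome 13, 86044816 to 86046904, minus strand), a small membrane subunit of the oxidase, was the other member past the threshold in 11 of 11 classes. It was at 922 CPM in pooled SMA cells and 665 in Con, a log2 ratio of 0.47 (0.45 to 0.49), and ran from 0.35 in mural cells to 1.00 in fibroblasts. In astrocytes it stood at 1029 and 680 CPM, in OPCs at 1065 and 763, and in Schwann cells at 1173 and 737. Its neighbours in complex IV, Cox7a2, Cox6c and Ndufa4, were at 0.39, 0.37 and 0.36, and past the threshold in 9, 10 and 7 classes. Cox4i1 and Cox5a, by contrast with these small subunits, were at 0.05 and 0.04.

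Ndufb1-ps, annotated as a bidirectional promoter lncRNA although its symbol is that of a complex I subunit, was at 221 CPM in pooled SMA cells and 163 in Con, a log2 ratio of 0.44 (0.39 to 0.48), and past the threshold in 10 of 11 classes. It led the members in erythroid cells, at 1.01, and in mural cells, at 0.74. Uqcr11, a small subunit of complex III, led in fibroblasts at 1.33 (1.12 to 1.53), with 314 SMA and 592 Con UMIs, and was at 0.35 over the pooled cells. Atp5k and Ndufa3, small subunits of complexes V and I, were at 0.43 and 0.42 and past the threshold in 9 classes each.

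A few larger subunits had the opposite sign. Atp5b (chromosome 10, 128083273 to 128090391, plus strand), the catalytic beta subunit of the F1 head, was at 427 CPM in pooled SMA cells and 572 in Con, a log2 ratio of -0.42 (-0.45 to -0.39). It was lower in SMA in 11 of 11 classes and past the threshold in 7, and had the lowest ratio of all members in OPCs (-0.35), COPs (-0.42), ependymal cells (-0.46), erythroid cells (-0.50) and mural cells (-0.58). In mural cells its level was 628 CPM in SMA and 936 in Con, and in astrocytes 506 and 647, while in fibroblasts it was 433 CPM and 434. Atp5a1, the alpha subunit beside it, was at -0.26 over the pooled cells and the lowest member in oligodendrocytes (-0.47) and Schwann cells (-0.27). Both share a complex with Atp5md and Atp5k, so members of the ATP synthase were found at both ends of the order.

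In the other complexes some larger subunits were below 0 as well. Uqcrc1, a core protein of complex III, was at -0.26 (-0.30 to -0.22) and below 0 in 10 of 11 classes, but past the threshold in 0, and Uqcrc2 was at -0.12. In complex I, Ndufa10, Ndufs1 and Ndufv1 were at -0.20, -0.15 and -0.14, where Ndufs1 and Ndufv1 are core subunits that carry cofactors or lie in the electron path. Sdha, the flavoprotein of complex II, was at -0.18 and had the lowest ratio among members in endothelial cells, -0.60, at 47.8 CPM in SMA and 72.5 in Con, while Sdhb beside it was at 0.01 and above 0 in 8 of 11 classes. Cox7a2l, an assembly factor of supercomplexes, was at -0.19 and the lowest member in microglia at -0.33. These differences between members of a complex mean that its summed share hides both directions.

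Annotated transcript length moved with these ratios. Over the 90 members with a coding transcript and at least 200 UMIs in the pooled cells, the correlation of the log2 ratio with log2 length was -0.41 (Pearson) and -0.60 (Spearman). In the 11 classes Pearson's r ran from -0.67 to -0.35. These are correlations across genes of the same libraries, and genes are not independent replicates. The 30 members under 600 nt had a median log2 ratio of 0.29, the 28 from 600 to 1000 nt of 0.09, the 23 from 1000 to 2000 nt of -0.05 and the 9 from 2000 to 4000 nt of -0.01. Other genes showed the short end as well: the 141 other genes under 600 nt had a median of 0.19, with 27.7% higher and 12.8% lower past the threshold, while 2985 from 1000 to 2000 nt had a median of -0.02, with 11.6% and 13.5%. The relation did not run through the longer of these genes, since 3304 over 4000 nt had a median of 0.07, and Pearson's r over the other genes ran from -0.20 to 0.14 and was negative in 7 of 11 classes. Ribosomal-protein genes, another set of short transcripts, were at 0.19 for 24 under 600 nt and -0.22 for 14 from 1000 to 2000 nt, and r was negative in 11 of 11 classes. The part of length in the result was not tested.

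**Figure D3:**
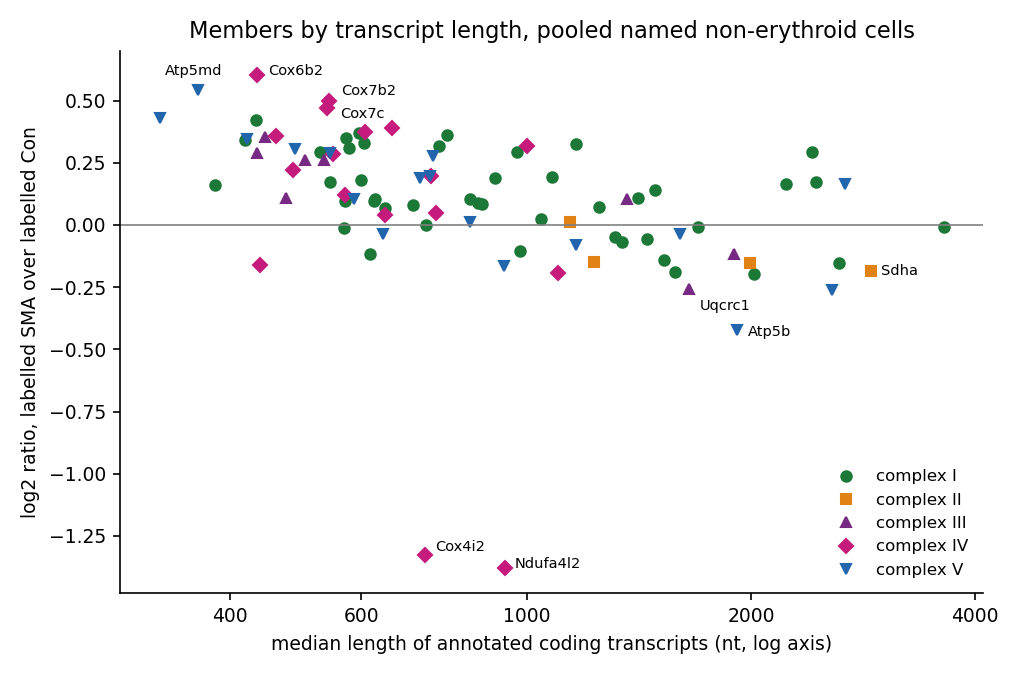
Each point is 1 member, by the median length of its annotated coding transcripts (nt, log axis) and its log2 ratio of SMA over Con in pooled named cells other than erythroid ones, with colours and shapes for complexes I to V. Short members such as Atp5md (0.54) and Cox7c (0.47) lie high, long ones such as Atp5b (-0.42) and Uqcrc1 (-0.26) lie low, and the mural isoforms Ndufa4l2 and Cox4i2 lie far below the rest.

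Barcodes listed in both libraries allowed the members to be read in pairs. For 5394 Con cells other than erythroid ones, the SMA library listed the same barcode with fewer UMIs, 7527149 against 42317042 in all. The members took 2.95% of UMIs in these SMA copies and 3.03% in the Con cells, a log2 ratio of -0.04 (-0.05 to -0.03), where the kept SMA cells were above Con. Of 89 members, 0 were higher in the copies past the threshold and 5 were lower, with 1.17% and 4.49% of all 11855 genes. The share lower, 5 of 89, was near that of all genes. Those 5 were Atp5mpl, Atp5k, Ndufb1-ps, Ndufaf5 and Cox7c, at log2 ratios of -0.49 to -0.32, where the interval of Ndufaf5 included 0. Across the members the correlation with log2 length was 0.51, of the other sign than between the kept cells, although not each short member was lower, with Atp5g2 at 0.06.

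The genes around the nuclear members were read from fixed lists. Ribosomal-protein genes, which lie outside the pathway, were also higher in SMA in 11 of 11 classes, with a median log2 ratio of 0.05 and at most 0.32, in erythroid cells. Mitochondrially encoded subunits, 13 in all, took 6.44% of UMIs in the pooled SMA cells and 6.43% in Con, and their median log2 ratio over the classes was -0.05, higher in 5 and lower in 6. Cells with a mitochondrial share of 10% or more had been left out, which limits this comparison. Inside that list, mt-Nd4l was higher in 11 of 11 classes, with a log2 ratio of 1.35 (1.31 to 1.39) over the pooled cells, and mt-Atp8, mt-Nd6, mt-Nd5 and mt-Co1 were at 0.91, 0.75, 0.64 and 0.28, while mt-Co3 was at -0.28. They give 45 of 130 pairs past the threshold upwards and 10 downwards, 34.6% and 7.69%, where 12.2% and 11.2% of the pairs of all genes were. Assembly factors outside the rule had a median of 0.10, with 29 of 176 pairs higher and 9 lower, 16.5% and 5.11%. Electron carriers and related subunits, which include cytochrome c and the ADP/ATP carriers, were at 0.03, with 17 of 123 pairs higher and 4 lower, 13.8% and 3.25%, the former near the share of all pairs.

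The lists of enzymes that feed the chain had medians below 0. TCA cycle genes had a median log2 ratio of -0.09, were higher in 2 of 11 classes, and gave 6 of 143 pairs higher and 16 lower, 11.2%, where 12.2% and 11.2% of all pairs were higher and lower, so the share lower was that of all genes. Glycolysis genes had a median of -0.18, were higher in 2 of 11, and gave 12 of 136 pairs higher and 40 lower, 8.82% and 29.4%. In the pooled cells glycolysis took 0.562% of UMIs in SMA and 0.642% in Con. Hypoxia-induced genes had a median of 0.00 with 5 of 44 pairs higher and 4 lower, 11.4% and 9.09%, near the shares of all pairs. Known regulators of mitochondrial genes, such as Nrf1, Gabpa and Tfam, had a median of 0.06, and 0 of 29 pairs were higher and 2 lower, 6.90%.

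The nuclear share rose with the mitochondrially encoded share over bins of cells. With named cells other than erythroid ones, up to a mitochondrial share of 20%, binned by that share, the nuclear members took 2.71% of the UMIs that are not mitochondrially encoded in Con cells of the bin from 2.5 to 5%, 3.24% in the bin from 5 to 7.5%, and 4.85% in the last bin, up to 20%. In SMA the values of these bins were 3.39%, 3.54% and 5.46%. SMA was above Con in 8 of 8 bins, most in the lowest bin, where 65 SMA cells were at 3.17% and 478 Con cells at 1.98%, with median depths of 8227 and 2692 UMIs. The bins pool classes: a fibroblast cluster of 437 Con and 2 SMA cells and a monocyte cluster of 298 and 24 had median mitochondrial shares of 2.12% and 2.79%, and the part of this makeup in the lowest bins was not tested. Within classes, SMA was above Con in 8 of 8 bins in OPCs and astrocytes, where the lowest astrocyte bin held 1 Con cell, and in 7 of 8 in microglia, with 3.27% in SMA and 3.32% in Con in the bin from 10 to 12.5%. The rise did not hold at the low end in SMA astrocytes, with 4.38% in the lowest bin, of 10 cells, and 3.75% in the next. Depth fell with mitochondrial share in the upper bins, to a median of 1249 UMIs in SMA and 973 in Con in the last one.

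**Figure D4:**
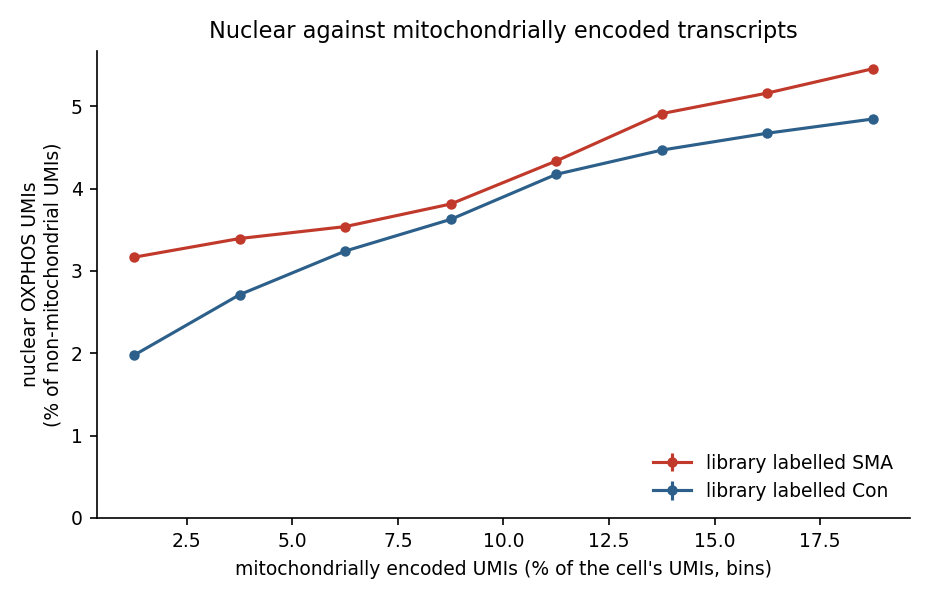
Points give the nuclear OXPHOS UMIs as a share of non-mitochondrial UMIs (%) by bins of the cell's mitochondrially encoded share (%), for the libraries labelled SMA (red) and Con (blue), over named cells other than erythroid ones. Both lines climb, from 3.17% to 5.46% in SMA and from 1.98% to 4.85% in Con, and the red line is above the blue in each of the 8 bins.

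The members whose highest class stood farthest above the median class were Ndufa4l2 and Cox4i2, both with their highest level in mural cells. Ndufa4l2 (chromosome 10, 127514967 to 127517154, plus strand), a hypoxia-responsive relative of Ndufa4, was at 1127 CPM in SMA mural cells and 1194 in Con, a log2 ratio of -0.08 (-0.21 to 0.05). Over both libraries its mural level was 263 times the median class. It made up 65.4% (62.3 to 68.4) of the Ndufa4 and Ndufa4l2 UMIs of SMA mural cells and 72.5% (70.9 to 74.1) in Con, so the isoform exceeded Ndufa4 there in both libraries. In astrocytes it was 0.24% and 0.41%, and in ependymal cells 4.65% and 4.73%. After each cell was thinned to 1000 UMIs, 67.4% of SMA and 64.0% of Con mural cells had an Ndufa4l2 UMI (94.6% and 95.7% unthinned, median depths of 5776 and 6534 UMIs), against 0 of 621 SMA erythroid cells, which allows up to 0.59% with a UMI at that thinned depth, and 0.74% of Con ones (0.48% and 1.76% unthinned, 7199 and 7932 UMIs).

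Over both libraries fibroblasts came next for Ndufa4l2, at 126 CPM, although in SMA ependymal cells, at 35.8 CPM, were above them. In fibroblasts it was at 220 CPM in Con and 32.2 in SMA, a log2 ratio of -2.77 (-3.51 to -2.11), the lowest of any member in a class, and its part of the pair was 27.5% in Con and 2.96% in SMA. Nearly all of the Con UMIs, 583 of 613, were in the cluster of 433 Con and 2 SMA cells, which had 12 UMIs of the mural marker Rgs5, while the Con cells of the other cluster had 114 and its SMA cells 3. In the other fibroblast cluster Ndufa4l2 was at 33.1 CPM in SMA and 20.9 in Con. Outside the cluster of mostly Con cells the level in SMA was thus not below that in Con, from 19 and 30 UMIs.

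Cox4i2 (chromosome 2, 152754173 to 152765037, plus strand), the oxygen-sensitive alternative to Cox4i1, was also highest in mural cells, with astrocytes next at 11.2 CPM over both libraries. Its mural level was 222 CPM in SMA and 290 in Con, a log2 ratio of -0.39 (-0.68 to -0.10), and it made up 9.72% (8.15 to 11.5) of the Cox4i1 and Cox4i2 UMIs in SMA mural cells and 12.8% (11.8 to 13.9) in Con. In astrocytes, where it was the member with the lowest ratio, it was at 8.72 and 13.8 CPM, -0.66 (-1.09 to -0.24). Pooled over classes, Ndufa4l2 and Cox4i2 had the lowest log2 ratios of all members, -1.38 and -1.33, beside 92 mural cells in SMA and 259 in Con. Of the pooled Ndufa4l2 UMIs, 630 of 969 in SMA and 2119 of 3008 in Con were in mural cells, where the ratio was the -0.08 given above, and 19 and 613 were in fibroblasts. Over the 22 sums of 11 classes and 2 libraries, the genes most like Cox4i2 were Heyl, Enpep and Notch3 (r of 0.94, 0.92 and 0.91 on log2(CPM + 1)), and those most like Ndufa4l2 were Ecm2, Rgs4 and Pde5a (0.94, 0.93 and 0.93). The points share libraries, and the list follows what mural cells express.

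**Figure D5:**
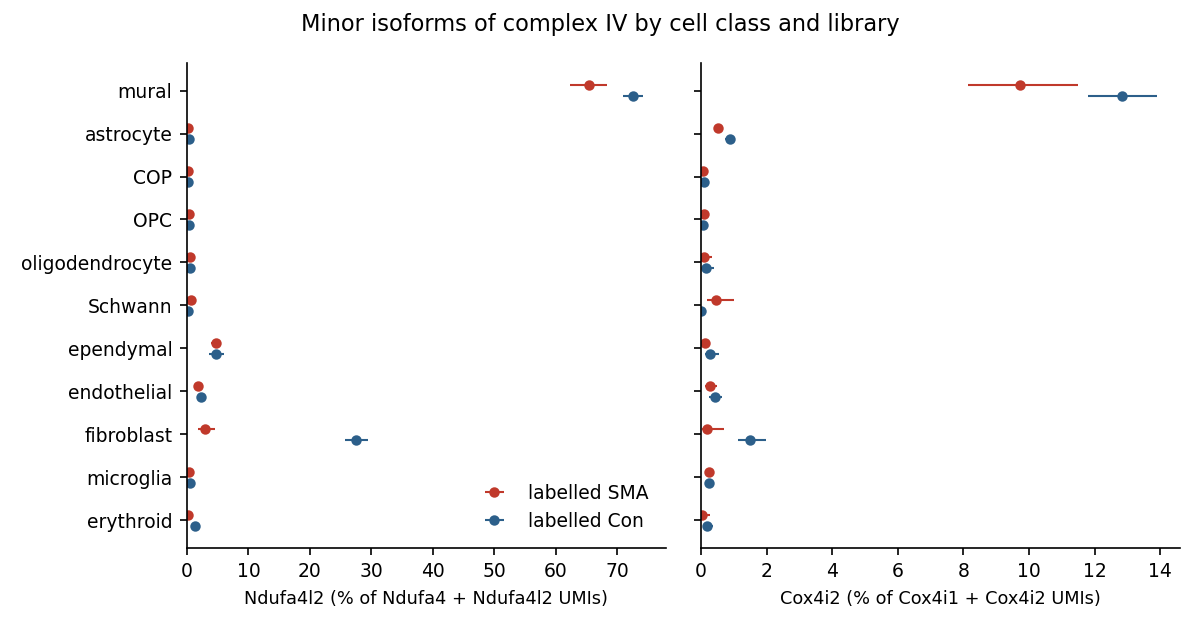
Left, Ndufa4l2 as a share of Ndufa4 and Ndufa4l2 UMIs (%), and right, Cox4i2 as a share of Cox4i1 and Cox4i2 UMIs (%), by cell class, with exact 95% binomial intervals, red for the library labelled SMA and blue for Con. Mural cells stand out in both panels (65.4% and 72.5%, 9.72% and 12.8%), and fibroblasts differ between the libraries for Ndufa4l2 (2.96% and 27.5%).

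Cox6b2, known as the testis form of Cox6b, was the member with the highest pooled ratio, 0.60 (0.48 to 0.73), at 29.4 CPM in SMA and 19.4 in Con. Its highest class was erythroid, at 76.7 CPM in SMA and 90.6 in Con, where it made up 24.4% (22.2 to 26.7) and 33.9% (32.1 to 35.7) of the Cox6b1 and Cox6b2 UMIs. In astrocytes it was 4.89% (4.40 to 5.43) in SMA and 2.15% (1.82 to 2.52) in Con, with 337 and 149 UMIs, a log2 ratio of 1.53, the highest member of that class as well as of OPCs (0.64) and COPs (0.76). The direction was not shared: Cox6b2 was higher in SMA past the threshold in 3 of the 4 classes with 200 UMIs and at -0.24 in the erythroid cells.

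The remaining isoforms were rare. Cox6a2, the muscle form, was detected mainly in microglia, as 2.98% (2.30 to 3.81) of Cox6a1 and Cox6a2 UMIs in SMA and 2.70% (1.93 to 3.65) in Con, with 62 and 40 UMIs, and at 0.05% to 0.09% in astrocytes. Cox7a1, the heart and muscle form, was at most 1.53% of its pair, in Con mural cells, and 0.83% in SMA ones. Cox7b2 was highest in astrocytes, at 6.05 CPM in SMA and 5.79 in Con, with a pooled log2 ratio of 0.50 (0.11 to 0.89) from 123 and 104 UMIs. Cox8b had 19 and 24 UMIs over the pooled cells and Cox8c 0 and 1. Cox6a2, Cox8b and Cox8c were the members under 200 UMIs, and none of the 94 was at 0 in both libraries.

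The c ring of ATP synthase is made from Atp5g1, Atp5g2 and Atp5g3, which encode the same mature protein. Atp5g2 gave 48.9% of their UMIs in Con astrocytes and 48.0% in SMA, 57.3% and 55.8% in OPCs, and 59.9% and 55.5% in microglia. Neurons were different in both libraries: Atp5g1 gave 37.7% (33.6 to 41.8) in Con and 36.8% (33.6 to 40.0) in SMA, Atp5g2 34.6% and 34.2%, and Atp5g3 27.7% and 29.0%. The neuron shares come from 560 and 876 UMIs.

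A few assembly factors also had a class of their own. Ndufaf2, a complex I assembly factor, was at 337 CPM in oligodendrocytes over both libraries, 5.44 times the median class, with COPs next at 191 CPM. Ndufaf3 and Ndufaf7 were highest in ependymal cells, at 153 and 56.8 CPM, or 2.62 and 2.48 times the median class. The SMA over Con ratios of these 3 were within 0.20 of 0 in the pooled cells, at -0.12, 0.14 and 0.16, and the signs turned over the classes with 200 UMIs, where the medians were 0.010, -0.03 and -0.03. For the 91 members as a whole the ratio of the highest class to the median one was 1.42 in the median member and above 2 for 8. Exons of Ndufb2, Ndufb8 and Ndufb9 overlap another annotated gene on the same strand, and those of Atp5o another entry of the same symbol, and their counts are uncertain to that extent.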

How the data were processed

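Single cells of whole spinal cord from 1 SMA and 1 Con library were measured with 10x Genomics 3′ v3 chemistry. The authors aligned the reads and made the deposited UMI counts per gene and barcode with Cell Ranger (4.0.0 per the file headers, while the study's methods name another release) on the build mm10, and used Seurat 3.2.2 per the submitters' processing notes. The counts are raw and not normalized.

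From these counts, cells with 200 to 4000 genes and a mitochondrial share under 10% were kept, as the study did, and SMA barcodes also listed for Con were left out, as was a cluster of 1337 Con cells with a median ribosomal-protein share above 30%. No doublet caller was run beyond the limit of 4000 genes. Cells were clustered (2000 variable genes without the members and lists, 30 components, 20 neighbours, Louvain at resolution 1) and clusters were named from markers, so these classes need not match those of the study. UMIs were summed per class and library and divided by all UMIs. Median depths per compared class ran from 3469 to 12153 UMIs. Intervals are exact Poisson, Clopper-Pearson or conditional binomial ones at 95%. With 1 library per group no test was made and no replicate error exists. A log2 ratio of at least 0.32 in size with at least 200 UMIs counted as past the threshold. The ratio was tested on simulated counts. Lengths are medians over GENCODE M21 coding transcripts.

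Members and lists were chosen with earlier results of these data known. Named were the 3 most abundant members of each complex, the 5 highest and 5 lowest pooled ratios, the extremes of each class, the 6 most class-restricted members, the isoform families and the 3 genes most like Cox4i2 and Ndufa4l2. Other members named beside them (the large and small subunits, the mitochondrially encoded genes and the genes with overlapping exons) were chosen after their values were seen. The NRF-1 word was shortened by 1 letter after the matches of a longer form, held by fewer members and fewer genes, had been seen. Python 3.11.15, numpy 2.4.6, scipy 1.17.1, pandas 2.3.3, scikit-learn 1.9.0, igraph 0.11.9 and matplotlib 3.10.9 were used. Changes of cell limits, scaling, clustering and thresholds were tried as alternatives.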

Additional observations from a re-analysis of the deposited data

Results flagged for a closer look

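Ndufa9, an accessory subunit of complex I, was the 1 member whose level differed past the threshold in opposite directions in different classes, with counting intervals that left out 0 in both. Its log2 ratio of SMA over Con was 0.35 (0.04 to 0.66) in erythroid cells, from 135 SMA and 241 Con UMIs, and -0.54 in mural cells, from 51 and 235 UMIs. The difference between the classes was not tested, and over the 11 classes the gene was above 0 in 3 and below 0 in 8, with -0.07 in the pooled cells.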

How the results depend on the processing

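No paired analysis was possible because each group is 1 library. The nuclear share was higher in SMA in each compared class under the alternatives tried, with 1 exception: with the shared SMA barcodes kept, 11 of 12 classes were higher and oligodendrocytes turned from 0.14 to -0.09. The median over classes stayed between 0.15 and 0.32. It was 0.16 with the shared barcodes kept, 0.15 with equal weight per cell, 0.16 when scaled without haemoglobin, ribosomal-protein and mitochondrially encoded genes, and 0.16 when centred on the median of all genes. With a mitochondrial share under 5%, which left 6 classes, it was 0.32, complexes I, III, IV and V were at 0.28, 0.37, 0.42 and 0.27, complex II turned to 0.016, and 6 pairs were lower. Complex V was at 0.10 with the shared barcodes kept, 0.11 with no upper limit on genes and 0.11 under the scaling without those 3 gene sets. Complex IV was at 0.29 at Louvain resolution 2 and 0.29 for subunits only. The 267 pairs higher became 152 with the shared barcodes kept and 66 at 1.5-fold, and the 20 lower became 12 with at least 1000 UMIs, 49 with no minimum and 3 at 1.5-fold. Except where the construction says so, the cause was not tested. Leaving out the erythroid class or the shallow microglia cluster were both added after seeing the data. Each class ratio is computed by itself, so the former cannot move the other classes. The latter can move only microglia, which went from 0.18 to 0.21. Leaving out a replicate was not possible. Depth limits the rare isoforms, several of which rest on under 200 UMIs.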

Other observations

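The classes with too few cells for a comparison gave values in the same range. Macrophages had a nuclear share of 2.42% (2.37 to 2.47) over 38 SMA cells and 2.04% (2.01 to 2.08) over 64 Con cells. Monocytes had 2.74% (2.64 to 2.85) over 20 SMA cells and 2.20% (2.17 to 2.24) over 287 Con cells, with median depths of 3849 and 1457 UMIs. Complex II, in monocytes, was at 0.033% (0.022 to 0.047) of UMIs in SMA, from 29 UMIs, and 0.045% (0.040 to 0.051) in Con. Macrophages had the other order, at 0.048% (0.041 to 0.055) in SMA and 0.042% (0.037 to 0.047) in Con.

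Single cells varied within each class. In fibroblasts the 90th percentile of Con cells, 3.00%, was below the 25th percentile of SMA cells, 3.04%, while in astrocytes the cells of the libraries overlapped. In Con astrocytes the share of a cell's UMIs from the members ran from 2.46% at the 10th percentile to 4.19% at the 90th, with a median of 3.32%, and in SMA astrocytes from 2.71% to 4.86%, with a median of 3.73%. In erythroid cells the median cell was at 0.66% in Con and 0.73% in SMA, while the 90th percentile was at 4.44% and 5.28%.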
